A study of Mus musculus with 4 samples.

Results

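The genes described here are those of motile cilia and of ependymal cells, 81 of the 54348 genes in a table of transcript levels from sorted brain cells of mouse pups. They were taken by a rule on symbols that uses no measured value. The symbols were those of the axonemal dynein heavy chain (Dnah), dynein assembly (Dnaaf), cilia and flagella associated (Cfap), radial spoke (Rsph) and tektin (Tekt) families. A further 14 genes were taken by name, among them Foxj1, Mcidas, Ccno and Gmnc. The mice called fusion were PdgfraCreER;MN1:BEND2;AI14, which carried the MN1:BEND2 fusion gene found in astroblastoma, a brain tumour. The mice called control were PdgfraCreER;AI14. Both genotypes carried PdgfraCreER, a tamoxifen-activated recombinase driven by Pdgfra, a gene of oligodendrocyte precursors that some fibroblasts also express. Both also carried AI14, a reporter that makes red tdTomato once recombined. Pups received tamoxifen on days 0 and 1 after birth. On day 4 their forebrain cells that were alive (DAPI-negative) and tdTomato-positive were sorted. Pial membranes were removed before the sort, and RNA was amplified as full-length cDNA with a kit for single cells. Whether reads were counted by strand is not stated. There were 2 fusion and 2 control libraries. Forebrains of individual pups were dissociated, but whether libraries of 1 genotype stem from different pups is not stated.

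Motile cilia are beating hairs built on a ring of doublet microtubules around a central pair. Dynein arms on the doublets make the force, and radial spokes and the central pair set the rhythm. In the brain, ependymal cells of the ventricle wall bear tufts of them and move cerebrospinal fluid. Gmnc and Mcidas start the programme that makes many basal bodies in a cell, Ccno acts in basal body formation, and Foxj1 with the RFX transcription factors turns on the axonemal genes. A primary cilium, which most cells carry as a sensory antenna, shares part of the machinery but lacks beating parts.

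Values are TPM, a transcript level scaled for length and to a common library total, so that levels can be set beside each other between genes but the read depth is unknown. The mitochondrial share of TPM was 48.7% and 26.2% in fusion replicates 1 and 2, and 10.1% and 7.30% in control replicates 1 and 2. The fusion libraries had 9050 and 10017 genes at 1 TPM or above, against 12772 and 13219 in the control libraries. Bend2, whose sequence is part of the fusion, had 3.82 and 8.72 TPM in the fusion libraries and 0 TPM in each control library. Unlike Mn1 and Pdgfra, Bend2 is listed by symbol without an Ensembl identifier, and which sequence was counted under it is not stated. Mn1 had 2.75 and 3.04 TPM in the fusion libraries, against 11.6 and 17.8 TPM in the control libraries. Eif2s3y, on the Y chromosome, was listed at 0 in both fusion libraries and had 121 and 122 TPM in the control libraries, so sex and genotype cannot be told apart in any result here. Oligodendrocyte precursor markers were present in every library: Pdgfra had 123 and 192 TPM in the fusion libraries, against 337 and 429 TPM in the control libraries. In bulk samples, fewer cells of a type and less RNA per cell cannot be told apart.

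Foxj1, Mcidas, Gmnc, Hydin and Dnali1, which mark motile ciliated cells, were at or near 0 in all 4 libraries. Of the 81 genes, 45 stayed below 1 TPM in every library and 15 of these were listed at 0 in all 4. The genes of this set listed above 0 numbered 30 and 34 in the fusion libraries, against 52 and 55 in the control libraries. Summed over the set, TPM came to 143 and 277 in the fusion libraries and to 717 and 730 in the control libraries. Cfap20 and Cfap36 carried much of the sum, which without them was 86.1 and 169 TPM in the fusion libraries and 361 and 386 TPM in the control libraries.

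**Figure D1:**
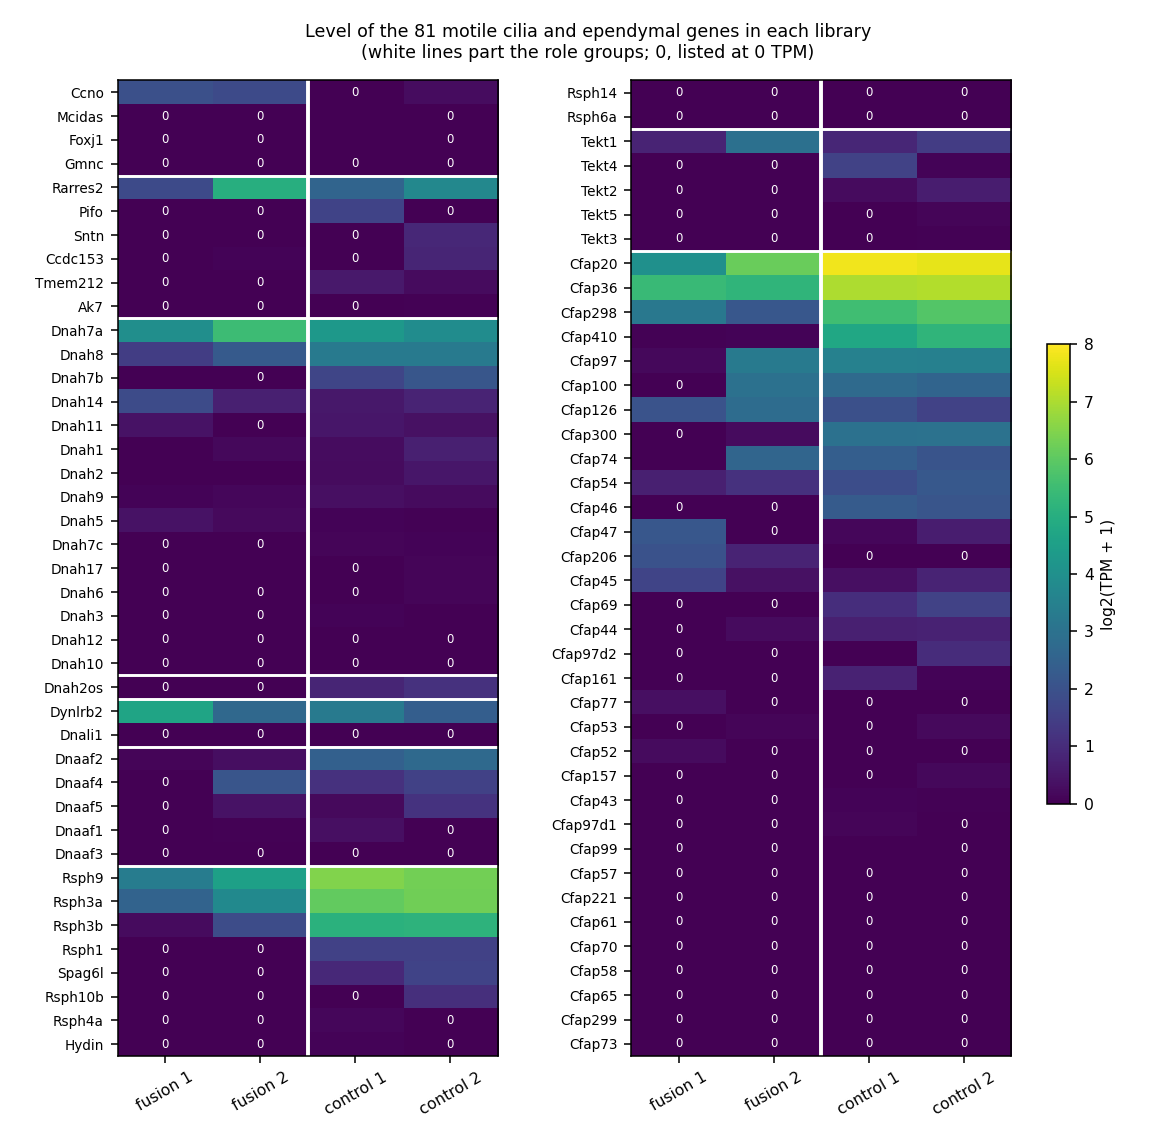
Level of each of the 81 genes, as log2(TPM + 1), in fusion replicates 1 and 2 and control replicates 1 and 2 (columns), with white lines between role groups and 0 marking genes listed at 0 TPM. Most rows are dark in all 4 columns, and the bright rows are a few Cfap, Rsph and Dnah genes.

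Among the multiciliation regulators, Ccno stood alone above 1 TPM. Foxj1, the master regulator of motile ciliogenesis, was listed at 0 in both fusion libraries and had 0.0141 and 0 TPM in the control libraries. Mcidas was listed at 0 in both fusion libraries, with 0.0157 and 0 TPM in the control libraries, and Gmnc was listed at 0 in all 4. Ccno (ENSMUSG00000042417.5, chromosome 13, 112987802 to 112990777, GRCm38) had 2.90 and 2.47 TPM in the fusion libraries and 0 and 0.199 TPM in the control libraries. Both fusion libraries lay above both control libraries, at a low level. Its log2 change of TPM + 1, on which all changes here are given, was 1.75 ± 0.27 (SE, n = 2 each; adjusted p = 0.00601, limma with Benjamini-Hochberg adjustment over 12871 genes). It passed the filter of at least 1 TPM in 2 libraries through the fusion libraries alone, and 81.8% of the 336 genes that did so were called higher, so the call supports nothing beyond the values themselves. Its adjusted p was 0.0858 without control replicate 1 and 0.0838 without control replicate 2.

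Ccno and Mcidas are neighbours in a cluster that also holds Cdc20b and the Mir449 genes, all linked to multiciliated cells. Within 100 kb of Ccno, Cdc20b, Mir449a, Mir449b and Mir449c were listed at 0 in all 4 libraries. Gpx8, for an endoplasmic reticulum peroxidase, lies in the same interval and had 69.9 and 198 TPM in the fusion libraries, against 46.1 and 59.5 TPM in the control libraries, so that its fusion values were also the higher ones. Dhx29, for a translation helicase, had 0.484 and 0.388 TPM in the fusion libraries and 6.17 and 11.2 TPM in the control libraries. Dhx29 lay lower in both fusion libraries, so the neighbours of Ccno did not all lie on the same side.

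The promoters of Ccno and Mcidas are shown because the values of these adjacent genes differ. Each is the 250 bases before the RefSeq start (GRCm38.p6), read 5′ to 3′ on the gene's strand, with matches to an X-box arm, GTTGCC or its reverse complement, in capitals. RFX factors bind the X-box, a pair of such arms.
Ccno, chr13:112987552-112987801, plus strand: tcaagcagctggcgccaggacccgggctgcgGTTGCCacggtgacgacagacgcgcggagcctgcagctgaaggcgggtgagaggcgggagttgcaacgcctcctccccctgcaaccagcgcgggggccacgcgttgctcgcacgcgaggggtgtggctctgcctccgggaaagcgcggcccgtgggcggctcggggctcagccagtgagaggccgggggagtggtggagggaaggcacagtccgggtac
Mcidas, chr13:112993618-112993867, plus strand: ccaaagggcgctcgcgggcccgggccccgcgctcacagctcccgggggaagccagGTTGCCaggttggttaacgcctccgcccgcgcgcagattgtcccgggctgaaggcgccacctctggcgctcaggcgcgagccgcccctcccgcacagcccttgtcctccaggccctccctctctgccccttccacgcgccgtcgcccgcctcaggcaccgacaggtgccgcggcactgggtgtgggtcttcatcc
Each window holds 1 arm.

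Arms of this kind were frequent in promoters across the set. Of the 81 genes, 66 had a promoter in the table, with 75 windows from 250 bases before to 50 after a start. GTTGCC, on either strand, was in 31 of the 75 windows, or 41.3%, against 12.5% of all 32851 promoter windows. GTTACC, the other arm searched, was in 13 windows, or 17.3%, against 7.21%. Either arm was in 64% of the 25 windows of tested members, in 46% of the 50 windows of untested members and in 18.6% of all windows. GTAAACA, a core bound by forkhead factors such as Foxj1, was in 8% of windows of the set and 3.65% of all. A full X-box was searched in a single form, with its arms 2 bases apart and those bases fixed, and was in 0 of the 75 windows and in 0.128% of all windows. Arms facing each other around other bases were not counted by that search. Windows of different starts of a gene can overlap, and a match is a run of letters and no measured binding.

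**Figure D2:**
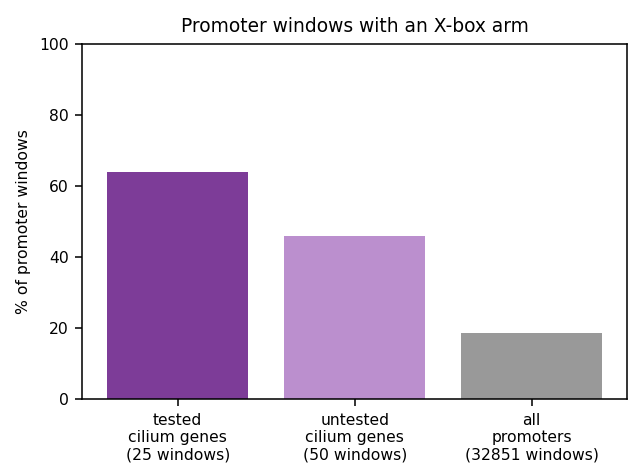
Share of promoter windows of 300 bases that hold an X-box arm, GTTGCC or GTTACC on either strand, for tested genes of the set (25 windows), untested genes of the set (50 windows) and all promoters (32851 windows). The shares are 64%, 46% and 18.6%.

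Only 25 of the 81 genes reached 1 TPM in at least 2 libraries and were tested. Of these, 1 was higher in the fusion libraries, 14 were lower and 10 did not pass at an adjusted p under 0.05. Among all 12871 genes tested, 51.3% were called lower and 4.95% higher, so the 56% called lower in this set is near the background. The median log2 change of the 25 was -1.54, against -1.41 over all tested genes. The filter shapes the count. Through the control libraries alone passed 7 genes of the set, all called lower, as were 92% of all genes that passed this way. They are Dnah7b, Cfap410, Cfap300, Cfap46, Cfap69, Dnaaf2 and Rsph1, and their calls, nearly set by the filter, support nothing beyond their values. Of the 17 that passed through both groups, 7 were lower, none was higher and 10 did not pass, and of all such genes 43.4% were lower and 3.57% higher. With each library rescaled to a median ratio of 1, the count was 3 higher, 8 lower and 14 not past, against 14.3% higher and 18.6% lower over all genes. The 8 lower genes were then those 7 and Rsph3b. The median change of the 25 was then -0.61, against -0.15 over all tested genes.

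**Figure D3:**
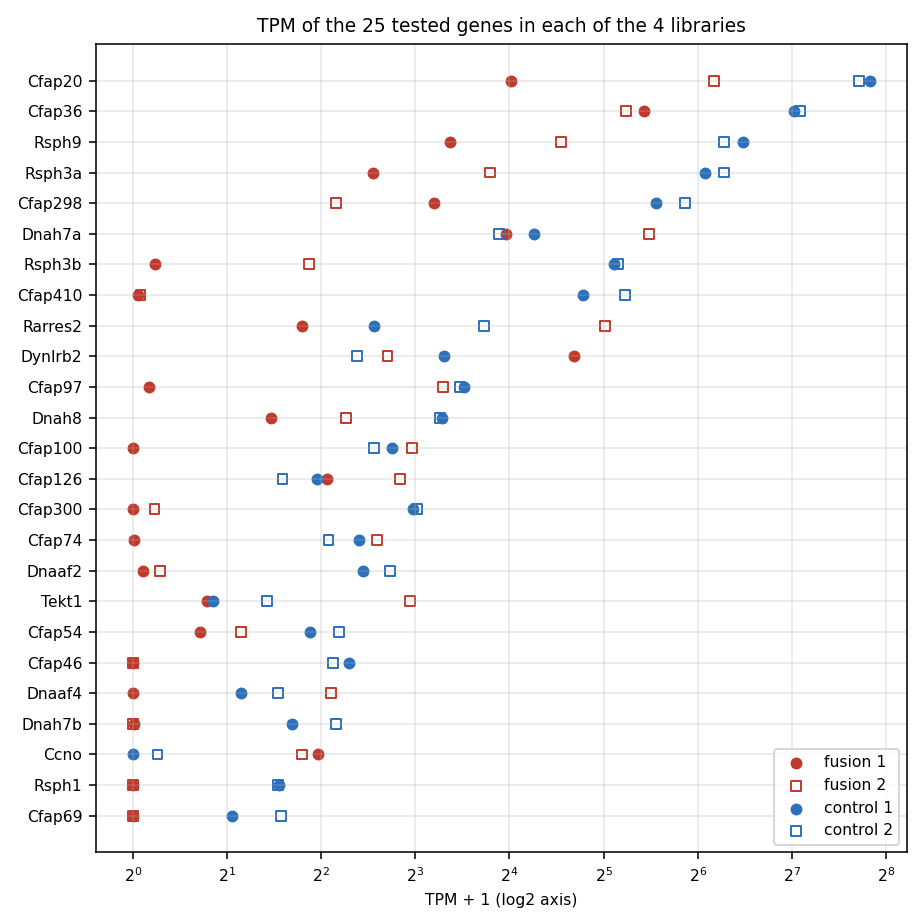
TPM + 1 on a log2 axis of the 25 tested genes (rows) in fusion replicates 1 and 2 (red) and control replicates 1 and 2 (blue), ordered by mean. For 16 genes both fusion libraries lie below both control libraries, and for Ccno and Cfap126 both lie above.

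Both fusion libraries lay below both control libraries for 16 of the 25, or 64%, against 71.1% of all tested genes. They lay above for 2 of the 25, Ccno and Cfap126, against 10.2% of all tested genes. Without control replicate 1 or without control replicate 2, 7 genes of the set were called lower in each case and none higher, against 8.59% and 7.96% lower and 0.117% and 0.109% higher over all tested genes. These 7 are the genes that passed the filter through the control libraries alone. In these fits the spread of the remaining control library is taken to be that of the fusion pair. Without fusion replicate 1, in which the mitochondrial share was highest, 13 were lower and 3 higher, against 51.9% and 8.42% of all tested genes. Without fusion replicate 2, 19 were lower and 2 higher, against 62.1% and 6.26% of all tested genes.

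**Figure D4:**
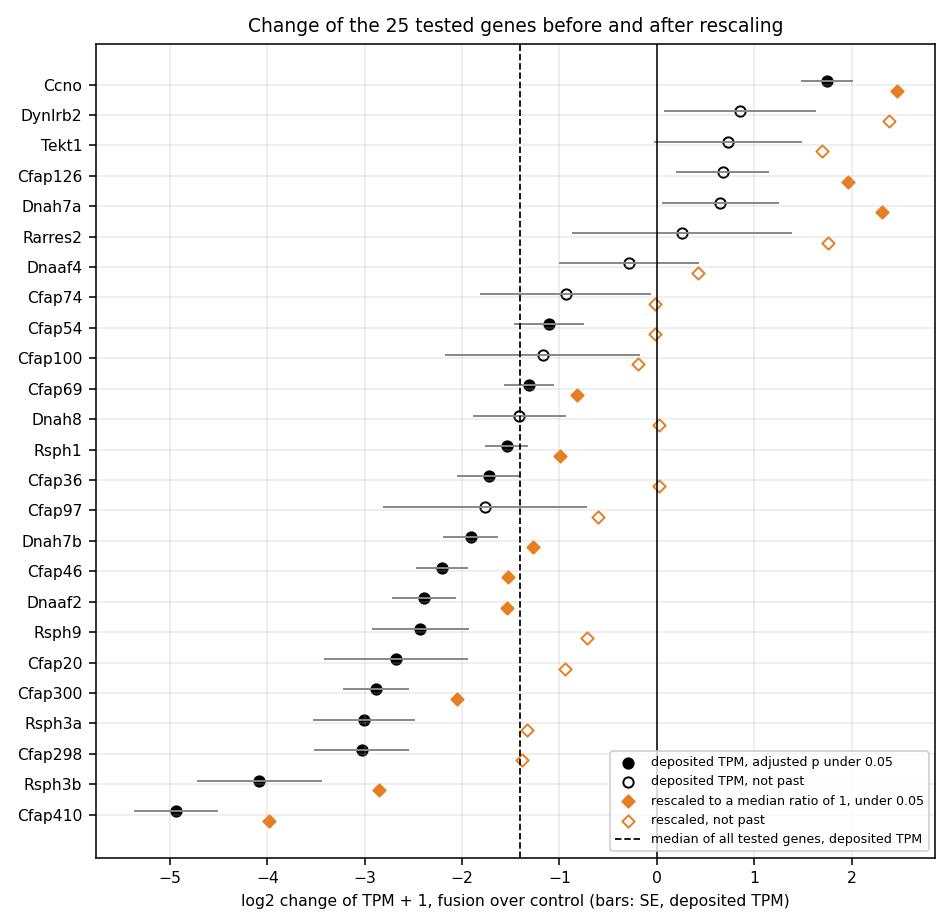
Log2 change of TPM + 1, fusion over control, of the 25 tested genes on deposited TPM (circles, bars are SE) and after rescaling to a median ratio of 1 (orange diamonds), filled where the adjusted p was under 0.05. The dashed line marks the median of all tested genes at -1.41, and 6 of the 14 genes called lower on deposited TPM lose the call after rescaling.

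The axonemal dynein heavy chains are the motors of the arms, each encoded by a very long transcript. Of 15 heavy chain genes, 3 were tested. Dnah7a, for an inner arm chain, had 14.6 and 43.8 TPM in the fusion libraries, against 18.2 and 13.8 TPM in the control libraries, and the groups overlapped. Its log2 change was 0.65 ± 0.60 (SE, adjusted p = 0.387). It rose after rescaling, by 2.31 (adjusted p = 0.0242, limma). It was also called higher without fusion replicate 1, and its change was -0.11 without fusion replicate 2. Its paralog Dnah7b had 0.0105 and 0 TPM in the fusion libraries and 2.22 and 3.45 TPM in the control libraries, a log2 change of -1.91 (adjusted p = 0.00563), and passed the filter through the control libraries alone. Dnah8, known as an outer arm chain of sperm flagella, had 1.76 and 3.80 TPM in the fusion libraries and 8.77 and 8.61 TPM in the control libraries. Both fusion values of Dnah8 were the lower ones, but the change of -1.41 ± 0.48 did not pass (adjusted p = 0.0527).

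Dnah7a and Dnah7b are hard to tell apart by sequence. Their coding sequences, 12072 and 12204 bases long, were 97.0% identical, with 367 mismatches over 12072 aligned bases. Of the 31-base words in Dnah7a transcripts, 54.2% also occur in another gene, and of those in Dnah7b transcripts 40.1%. The 60 bases below, from the coding sequences in GENCODE M21, are a stretch with about the average number of mismatches, which stand in capitals. They show how few bases tell the copies apart within a read.
Dnah7a, coding bases 5865 to 5924: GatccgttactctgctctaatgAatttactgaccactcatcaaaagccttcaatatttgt
Dnah7b, coding bases 5997 to 6056: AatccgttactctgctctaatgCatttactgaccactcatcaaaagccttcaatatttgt
Since the split of shared reads between the copies is uncertain, Dnah7a, Dnah7b and Dnah7c were also summed. The sum was 14.6 and 43.8 TPM in the fusion libraries and 20.5 and 17.3 TPM in the control libraries, so that fusion replicate 1 lay below and fusion replicate 2 above both control libraries.

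The other 12 heavy chains were not tested. Dnah5, the outer arm chain of ependymal and airway cilia, had 0.311 and 0.150 TPM in the fusion libraries and 0.0531 and 0.0400 TPM in the control libraries. Dnah9, its partner in outer arms, had 0.0571 and 0.103 TPM in the fusion libraries and 0.244 and 0.170 TPM in the control libraries. Dnah10 and Dnah12 were listed at 0 in all 4 libraries. Dnah14 reached 2.52 TPM in fusion replicate 1, with 0.621 TPM in fusion replicate 2 and 0.431 and 0.749 TPM in the control libraries. It was singled out after its values were seen, with Cfap47, Cfap206 and Cfap45 below. Dnah2os, an RNA antisense to Dnah2 and no cilium protein, matched by symbol and had 0 TPM in each fusion library, with 0.775 and 1.22 TPM in the control libraries.

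Of the smaller dynein chains, Dnali1, an inner arm light intermediate chain, was listed at 0 in all 4 libraries. Dynlrb2, a roadblock light chain that cytoplasmic dyneins also use, had 24.7 and 5.52 TPM in the fusion libraries and 8.88 and 4.21 TPM in the control libraries. The groups overlapped, and the change of 0.85 ± 0.78 did not pass (adjusted p = 0.388). Without fusion replicate 1 the change turned to -0.14, and without fusion replicate 2 it passed, so the higher value rests on fusion replicate 1.

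Dynein arms are put together in the cytoplasm by assembly factors, 5 of which were in the set and 2 tested. Dnaaf2, a co-chaperone of dynein folding, fell to 0.0737 and 0.224 TPM in the fusion libraries, against 4.44 and 5.66 TPM in the control libraries, a log2 change of -2.39 (adjusted p = 0.00479). It passed through the control libraries alone. Dnaaf4, also a co-chaperone, had 0 and 3.30 TPM in the fusion libraries and 1.21 and 1.91 TPM in the control libraries, on both sides of the control values (log2 change -0.29 ± 0.72, SE, adjusted p = 0.750). Of their 31-base words, 71.1% for Dnaaf2 and 93.7% for Dnaaf4 occur in other gene models, some of which overlap them, so their separate values are uncertain.

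In the group of radial spoke and central pair genes, all 4 tested were called lower, against 51.3% of all tested genes. All 4 are radial spoke genes, and Spag6l and Hydin of the central pair were not tested. Rsph9, for a spoke head protein, had 9.31 and 22.4 TPM in the fusion libraries and 88.6 and 76.8 TPM in the control libraries. It averaged 15.8 ± 9.22 TPM with the fusion and 82.7 ± 8.32 TPM without it (SD, n = 2), a log2 change of -2.43 (adjusted p = 0.0124). Rsph3a and Rsph3b encode the spoke stalk protein that anchors protein kinase A. Rsph3a had 4.84 and 12.9 TPM in the fusion libraries, against 66.7 and 76.5 TPM in the control libraries, and fell by 3.01 (adjusted p = 0.00783). Rsph3b had 0.177 and 2.66 TPM in the fusion libraries, against 33.6 and 34.7 TPM in the control libraries, and fell by 4.08 (adjusted p = 0.00640). In all 3, both fusion libraries lay far below both control libraries.

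Rsph3a and Rsph3b are near copies on chromosome 17, with coding sequences 99.2% identical and 13 mismatches over 1548 aligned bases. The stretch shown has 1 of them, in capitals.
Rsph3a, chr17:7945614-7979824, plus strand, coding sequence: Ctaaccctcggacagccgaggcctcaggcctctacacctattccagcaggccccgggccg
Rsph3b, chr17:6904413-6948682, minus strand, coding sequence: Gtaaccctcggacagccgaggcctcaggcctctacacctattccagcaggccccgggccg
Summed, the pair had 5.02 and 15.6 TPM in the fusion libraries and 100.2 and 111 TPM in the control libraries. This sum does not depend on how reads were divided between the copies. It can still depend on reads shared with other genes. Rsph3b shares 15.35% of its 31-base words with D10Wsu102e, and Rsph3a shares 7.97% with E430024P14Rik.

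Rsph1, for another spoke head protein, was listed at 0 in both fusion libraries and had 1.93 and 1.90 TPM in the control libraries. It was called lower (adjusted p = 0.00512), on control values just above the filter and through the control libraries alone, and lay higher with a correction for GC content and length. After rescaling, Rsph3b and Rsph1 were still called lower, and Rsph9 (-0.72, adjusted p = 0.197) and Rsph3a (-1.34, adjusted p = 0.0534) were not. Rsph9, Rsph3a and Rsph3b also lost their calls without control replicate 1 or without control replicate 2. Spag6l, of the central pair, was listed at 0 in both fusion libraries and had 0.878 and 2.04 TPM in the control libraries. Hydin, whose loss causes hydrocephalus in mice, was listed at 0 in both fusion libraries, with 0.0635 and 0 TPM in the control libraries.

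The cilia and flagella associated proteins were the largest group, with 33 genes, 12 of them tested and 8 lower. Of all tested genes, 51.3% were lower. Cfap410, Cfap300, Cfap46 and Cfap69 passed the filter through the control libraries alone, where 92% of all genes were called lower. These 4 were also the ones called lower after rescaling, against 18.6% of all tested genes. Cfap20 is an inner junction protein of the doublet microtubules. It had 15.2 and 71.1 TPM in the fusion libraries and 227 and 209 TPM in the control libraries (43.2 ± 39.5 TPM against 218 ± 12.6 TPM, SD, n = 2). Both fusion libraries were lower, and far apart from each other, and the log2 change was -2.68 ± 0.74 (SE, adjusted p = 0.0289). Cfap36, which binds the small GTPase Arl3, had 42.0 and 36.8 TPM in the fusion libraries and 129 and 135 TPM in the control libraries, a fall by 1.73 (adjusted p = 0.00969). Cfap36 was close to the median change of all genes, and after rescaling its change was 0.02.

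Cfap410 had the largest fall among the 25 tested genes of the set. Cfap410, which acts with the kinase Nek1 in cilium formation and DNA repair, had 0.0380 and 0.0578 TPM in the fusion libraries and 26.5 and 36.4 TPM in the control libraries. The change was -4.94 ± 0.43 (SE, adjusted p = 0.00367), or -3.53 relative to the median of all genes. It passed the filter through the control libraries alone, so its call was nearly set by the filter. Cfap300, which takes part in dynein arm assembly, had 0 and 0.172 TPM in the fusion libraries and 6.88 and 7.13 TPM in the control libraries, a log2 change of -2.89 (adjusted p = 0.00385), and passed the filter in the same way.

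Cfap298, needed for dynein arm assembly and cilium polarity, had 8.17 and 3.46 TPM in the fusion libraries and 46.1 and 57.2 TPM in the control libraries. It fell by 3.03 (adjusted p = 0.00667), but after rescaling by 1.38 without passing (adjusted p = 0.153). It overlaps a gene model on the other strand over 44.2% of its exonic bases, and the labels name no strand-specific kit. Its promoter is shown because it holds the most X-box arms among promoters of the tested genes, 4, arranged as facing pairs (capitals).
Cfap298, chr16:90934850-90935099, minus strand: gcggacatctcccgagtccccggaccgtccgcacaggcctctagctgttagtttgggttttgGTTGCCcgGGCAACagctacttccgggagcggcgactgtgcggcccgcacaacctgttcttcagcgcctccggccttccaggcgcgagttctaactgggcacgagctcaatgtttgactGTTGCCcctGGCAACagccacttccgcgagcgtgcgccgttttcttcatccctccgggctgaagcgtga

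Several Cfap genes encode projections of the central pair. Cfap46 was listed at 0 in both fusion libraries and had 3.90 and 3.35 TPM in the control libraries (called lower, adjusted p = 0.00402). Cfap69 was likewise listed at 0 in both fusion libraries, with 1.08 and 1.97 TPM in the control libraries (called lower, adjusted p = 0.0111). Both passed the filter through the control libraries alone, where 92% of all genes were called lower. Cfap54 had 0.638 and 1.22 TPM in the fusion libraries and 2.69 and 3.56 TPM in the control libraries. Its fall by 1.11 (adjusted p = 0.0476) was called in 2 of 14 other settings, and its change was -0.02 after rescaling.

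Cfap97, Cfap100 and Cfap74 split the fusion libraries. Cfap97 had 0.123 and 8.83 TPM in the fusion libraries, against 10.5 and 10.1 TPM in the control libraries. Cfap100, a modifier of inner dynein arms in Chlamydomonas, had 0 and 6.83 TPM in the fusion libraries, against 5.74 and 4.92 TPM in the control libraries. Cfap74 had 0.00694 and 5.04 TPM in the fusion libraries, against 4.28 and 3.22 TPM in the control libraries. In each, fusion replicate 1 was near 0 and fusion replicate 2 near the control values. None of the 3 passed (adjusted p = 0.201, 0.353 and 0.398), and all 3 were called lower without fusion replicate 2.

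A few genes were higher in a fusion library. Cfap126, which acts in basal body positioning, had 3.17 and 6.14 TPM in the fusion libraries and 2.89 and 2.01 TPM in the control libraries. Both fusion values were the higher ones, the change of 0.67 ± 0.47 did not pass (adjusted p = 0.270), and after rescaling it rose by 1.96 (adjusted p = 0.0303). Cfap206 had 3.07 and 0.726 TPM in the fusion libraries and was listed at 0 in both control libraries. Cfap47 had 3.54 and 0 TPM in the fusion libraries, against 0.106 and 0.562 TPM in the control libraries, and Cfap45 had 2.11 and 0.288 TPM in the fusion libraries, against 0.246 and 0.747 TPM in the control libraries. None of Cfap206, Cfap47 and Cfap45 reached 1 TPM in 2 libraries, and their high values came from fusion replicate 1.

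Tektins are filaments inside the doublet microtubules. Tekt1 had 0.726 and 6.71 TPM in the fusion libraries, against 0.797 and 1.68 TPM in the control libraries, and its change of 0.73 ± 0.76 did not pass (adjusted p = 0.443). Fusion replicate 1 was the lowest of the 4 libraries and fusion replicate 2 the highest. It was called higher without fusion replicate 1, and its change was -0.35 without fusion replicate 2. Tekt4 had 0 and 0 TPM in the fusion libraries and 2.00 and 0.0621 TPM in the control libraries. The other 3 tektins stayed below 1 TPM.

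The ependymal markers were low or uneven. Rarres2, for the secreted protein chemerin, had 2.47 and 31.3 TPM in the fusion libraries and 4.91 and 12.3 TPM in the control libraries. Again fusion replicate 1 was the lowest and fusion replicate 2 the highest, and its change of 0.26 ± 1.13 did not pass (adjusted p = 0.858). It overlaps Lrrc61 on the other strand over 33.6% of its exonic bases, so reads inside the overlap cannot be assigned by strand. Pifo, which acts at the base of cilia, was listed at 0 in both fusion libraries and had 2.05 and 0 TPM in the control libraries. Sntn, of the cilium tip, and Ak7, an adenylate kinase of axonemes, were listed at 0 in both fusion libraries and had at most 0.846 and 0.0286 TPM in a control library. Tmem212 was listed at 0 in both fusion libraries and had 0.461 and 0.165 TPM in the control libraries. Ccdc153 had 0 and 0.0645 TPM in the fusion libraries and 0 and 0.758 TPM in the control libraries.

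A list of 16 ependymal cell markers, some of them also among the 81 genes, was summed as well. Of its 7 tested genes 1 was higher, 1 lower and 5 did not pass. Of all tested genes, 4.95% were higher and 51.3% lower, against 14.3% each in this list. Its summed TPM was 105 and 129 in the fusion libraries and 50.7 and 61.9 in the control libraries. Cd24a, a surface protein also made by neurons and other cells, made up most of it in the fusion libraries. Cd24a rose, with 63.1 and 80.0 TPM in the fusion libraries and 20.4 and 27.2 TPM in the control libraries (adjusted p = 0.0185, limma). Without Cd24a the sums were 42.3 and 48.5 TPM in the fusion libraries and 30.3 and 34.6 TPM in the control libraries. Much of the remaining sum was 1 gene in each fusion library. Dynlrb2 had 24.7 TPM in fusion replicate 1, and Rarres2 had 31.3 TPM in fusion replicate 2. For both genes the groups overlapped and the change did not pass. Fam183b had 4.24 and 6.67 TPM in the fusion libraries and 2.85 and 1.92 TPM in the control libraries. Its change of 0.92 ± 0.45 did not pass (SE, adjusted p = 0.136, limma). After rescaling Fam183b was called higher, by 2.22 (adjusted p = 0.0224, limma). The median change of the 7 tested markers was 0.26, against -1.41 over all tested genes. Whether ependymal cells had a part in these sums was not tested. Tppp3, a tubulin-binding protein also made by other cells, fell, with 0 and 1.08 TPM in the fusion libraries and 5.59 and 9.65 TPM in the control libraries. Of 12 choroid plexus markers, 8 stayed below 1 TPM in every library, and Folr1 and Kcnj13 were listed at 0 in all 4. Ttr, the thyroxine carrier of choroid plexus, had 107 and 15.4 TPM in the fusion libraries and 0 and 0.255 TPM in the control libraries. Igf2, a growth factor also made by other cells, was called higher too. Enpp2, for autotaxin, which oligodendrocytes also make, went the other way, with 34.7 and 65.3 TPM in the fusion libraries and 640 and 666 TPM in the control libraries (adjusted p = 0.00384, limma). Otx2 was called lower as well, and passed the filter through the control libraries alone, where 92% of all genes were called lower. Of the 4 tested choroid plexus markers, 2 were thus higher and 2 lower, against 4.95% and 51.3% of all tested genes. The 12 markers summed to 192 and 178 TPM in the fusion libraries and 649 and 691 TPM in the control libraries. Enpp2 made up nearly all of the control sums, so the direction of the sum is that of Enpp2. Igf2 had 49.7 and 97.3 TPM in the fusion libraries and 6.10 and 23.2 TPM in the control libraries. Ttr and Igf2 thus had both fusion values above both control values, as did 10.2% of all tested genes. Ttr passed the filter through the fusion libraries alone, where 81.8% of all genes were called higher. The part of such cells in the values of the 81 genes was not tested.

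Other cilium genes, in 5 lists that share no member with the set, show where these changes stand. Together 129 of their 176 genes were tested, of which 4 were higher and 67, or 51.9%, lower, against 51.3% of all tested genes. Their median log2 change was -1.46, against -1.41 over all tested genes. The share called lower was near that of all tested genes.

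**Figure D5:**
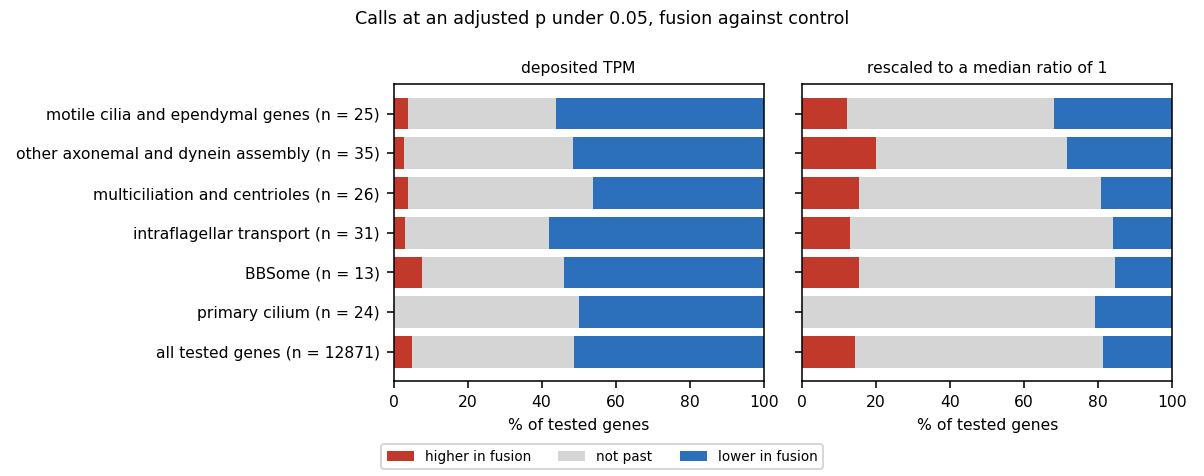
Share of tested genes called higher (red), not past (grey) and lower (blue) in fusion against control libraries at an adjusted p under 0.05, for the set, 5 other cilium lists and all tested genes, on deposited TPM (left) and after rescaling to a median ratio of 1 (right). The set and the lists have 46.2% to 58.1% of genes lower on deposited TPM, against 51.3% of all tested genes.

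Of 35 tested axonemal and dynein assembly genes outside the set, 18 were lower, 1 higher and 16 not past. Ruvbl1 and Ruvbl2, ATPases of many complexes besides dynein assembly, had 1.30 and 3.10 TPM and 2.95 and 7.32 TPM in the fusion libraries, against 132 and 120 TPM and 145 and 166 TPM in the control libraries. Dnal4 and Gas8, a dynein light chain and a part of the nexin link, fell by 3.97 and 3.76. Gas8 passed the filter through the control libraries alone, where 92% of all genes were called lower. Efcab2 was the gene that rose, with 9.54 and 19.5 TPM in the fusion libraries and 2.69 and 3.20 TPM in the control libraries (adjusted p = 0.0263, limma).

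Of 26 tested regulators of multiciliation and centriole amplification, 12 were lower, 1 higher and 13 not past. Cby1, of the basal body, had 0.0191 and 0.664 TPM in the fusion libraries, against 80.2 and 106 TPM in the control libraries. Tubg1, Tacc3 and Sass6, which act in spindles and centrioles of dividing cells as well, fell by 6.32, 3.63 and 2.99. Cby1, Tubg1 and Sass6 passed the filter through the control libraries alone, where 92% of all genes were called lower. Rfx2, an RFX transcription factor of ciliary genes, was the gene called higher. It had 1.28 and 3.95 TPM in the fusion libraries and 0.0906 and 0.171 TPM in the control libraries (log2 change 1.57 ± 0.42, SE, adjusted p = 0.0273, limma). Rfx2 passed the filter through the fusion libraries alone, where 81.8% of all genes were called higher. Its call supports nothing beyond its values. Efcab2, Rfx2, Hspb11 and Bbip1 are named, after their values were seen, as the 4 genes of these lists called higher.

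Of 31 tested intraflagellar transport genes, 18 were lower, 1 higher and 12 not past. Kif3a, the anterograde motor, had 6.22 and 6.67 TPM in the fusion libraries, against 67.3 and 115 TPM in the control libraries, and Ift27, Wdr35 and Wdr60 fell by 3.48, 3.11 and 2.95. Hspb11, also called Ift25, rose, with 165 and 220.1 TPM in the fusion libraries and 100.1 and 70.8 TPM in the control libraries (adjusted p = 0.0438). Of 13 genes listed with the BBSome, a complex that carries membrane proteins in primary cilia, 7 were lower, 1 higher and 5 not past. Not all 13 encode parts of the complex. Bbs4 had 0.555 and 0.920 TPM in the fusion libraries, against 23.0 and 25.3 TPM in the control libraries, and Ttc8, Bbs7 and Bbs9 had log2 changes of -2.92, -2.64 and -2.63. Bbip1, the smallest subunit, rose, with 654 and 1073 TPM in the fusion libraries and 297 and 270.3 TPM in the control libraries (adjusted p = 0.0218). Of 24 tested genes of the primary cilium and its transition zone, 12 were lower and 12 not past. B9d2, Tmem237, Tctn2 and Mks1 fell by 5.11, 2.98, 2.75 and 2.48. Wdr35, Wdr60, Bbs4, B9d2, Tctn2 and Mks1 passed the filter through the control libraries alone, where 92% of all genes were called lower.

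Summed markers of the other cell types that the sort could hold differed in direction. Beside the counts below, 51.3% of all tested genes were lower and 4.95% higher. Summed microglia and macrophage markers came to 167 and 245 TPM in the fusion libraries and 113 and 60.3 TPM in the control libraries, with 3 of 10 tested members higher and 2 lower. Without Tyrobp, the sums were 62.3 and 129 TPM in the fusion libraries, against 96.9 and 52.6 TPM in the control libraries, so that the groups overlapped. Fibroblast and mural cell markers summed to 500.1 and 1038 TPM in the fusion libraries and 105 and 341 TPM in the control libraries, with 3 of 9 tested members higher and none lower. Without Mgp, the sums were 136 and 320.3 TPM in the fusion libraries, against 105 and 339 TPM in the control libraries, so that the groups overlapped. Yet for 5 of the 9 tested members both fusion libraries lay above both control libraries, against 10.2% of all tested genes. The median change of the 9 was 1.39, against -1.41 over all tested genes. After rescaling 6 of the 9 were higher, against 14.3% of all tested genes. Oligodendrocyte precursor markers summed to 455 and 583 TPM in the fusion libraries and 1323 and 1711 TPM in the control libraries, with 7 of 10 lower. Neuron sums were 51.9 and 55.0 TPM in the fusion libraries and 258 and 256 TPM in the control libraries. Of 7 tested neuron markers, 5 were lower. Astrocyte and radial glia sums overlapped, with 9097 and 17318 TPM in the fusion libraries and 9767 and 9750 TPM in the control libraries. Endothelial sums were 3.24 and 2.33 TPM in the fusion libraries and 1.19 and 1.43 TPM in the control libraries. The part of these cells, or of the mitochondrial share, in the changes of cilium genes was not tested.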

How the data were processed

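The authors deposited TPM for 54348 genes in 4 libraries sequenced as 100 bp paired ends. The submitters' processing notes list Trimmomatic 0.39, Salmon 1.8.0, GRCm38 and mm10. Which annotation was used, and how transcripts were summed to genes, is not stated. TPM keeps no depth, so no counting interval or floor is given. Genes with at least 1 TPM in 2 libraries were compared on log2(TPM + 1) with limma 3.58.1 in R 4.3.3 (trend, 2-sided, Benjamini-Hochberg over 12871 genes, threshold 0.05), and a change on this scale understates that of low genes. P-values reflect how far these libraries differ within a genotype, possibly for technical reasons alone. Rescaling set the median ratio over 10965 genes above 0 in every library to 1. Coordinates, transcript length, overlaps and shared 31-base words came from GENCODE M21 (GRCm38), matched by gene identifier without version. Promoters came from RefSeq (GRCm38.p6). Where several genes share a symbol, the 1 with the highest mean was used in the lists.

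The genes and lists were chosen with earlier results of these data known. Named were Bend2, Mn1 and Pdgfra as label checks, the 14 genes taken by name, every tested gene of the set, and up to 4 genes of largest change past the threshold in each other list; other names were chosen after their values were seen. Alternatives were other pseudocounts, filters, scalings and variance models, a replicate block, each library left out, and a loess correction of span 0.3 for transcript length and GC content. Protein sequences were not used here.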

Additional observations from a re-analysis of the deposited data

How the results depend on the processing

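Of the 81 genes, 25 were tested, with 1 called higher and 14 lower. Where the mean had to reach 5 TPM, only 12 were tested, with 0 higher and 8 lower. Among the 25, the counts were 3 and 8 after median ratio scaling and 3 and 4 after quantile normalization. They were 3 and 3 with the GC content and length correction. For all tested genes, 637 higher and 6606 lower became 1846 and 2396 with median ratio scaling, 1948 and 1955 with quantile normalization, and 1878 and 1952 with the correction. The higher count was 353 with no filter, 405 with the 5 TPM mean, and 970 on TPM without mitochondrial and ribosomal protein genes. The lower count was 4444 with the 5 TPM mean. A change of filter also changes how many genes are tested. In the 5 other cilium lists, 4 higher and 67 lower became 17 and 27, 18 and 20, and 20 and 18 under those 3 corrections in the same order. The lists had 0 higher and 40 lower with no filter, 36 lower with the 5 TPM mean, and 7 higher without mitochondrial and ribosomal protein genes.

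With each library left out in turn, the set had 0 to 3 genes higher and 7 to 19 lower, all tested genes 14 to 1084 higher and 1025 to 7987 lower, and the other lists 0 to 6 higher and 16 to 80 lower. The lowest counts came without a control library.

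Some changes turned sign. With median ratio scaling, Dnah8 and Cfap36 were at 0.022, Dnaaf4 at 0.42 and Pdgfra at 0.46. With quantile normalization, Dnah8 was at 0.048, Cfap100 at 0.027, Cfap74 at 0.32, Cfap54 at 0.22 and Dnaaf4 at 0.84. With the GC content and length correction, Cfap100 was at 0.78, Cfap74 at 0.41, Dnaaf4 at 1.28 and Rsph1 at 0.26. With 1 library left out in turn, the change ran between -0.11 and 1.41 for Dnah7a, between -2.66 and 0.31 for Cfap100, between -2.23 and 0.36 for Cfap74, and between -1.34 and 0.76 for Dnaaf4. It ran between -0.14 and 1.84 for Dynlrb2, between -1.35 and 1.87 for Rarres2, and between -0.35 and 1.81 for Tekt1. The cause was not tested.

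Libraries of the same number share only a number (correlation of their differences -0.0398 over 12871 genes). With the replicate block, the set had 1 gene higher and 13 lower, losing Cfap54. TPM gives no depth, so the precision of values near 0 is unknown.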
